A study of Homo sapiens with 8 samples.

Results

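The genes described here build and control the actomyosin cytoskeleton: actins, alpha-actinins, myosin light and heavy chains, filamins, actin-binding and focal adhesion proteins, together with the transcription factor SRF and its co-activators. They were taken by symbol from both deposited expression tables, and the SRF partners MKL1 and MKL2 (now named MRTFA and MRTFB) by Entrez gene number. All 35 members were found among 19479 listed genes. RNA had been sequenced from AC16, a dividing human line that came from the fusion of fibroblasts with cardiomyocytes of the adult ventricle and is labelled as cardiomyocyte. The study's title concerns ERK1/2 and YAP1/TAZ signalling under high glucose, and its design compares each rise of glucose with its own starting level.

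The 8 total RNA libraries form 4 groups of 2. In the 25 to 50 mM group, cells maintained at 25 mM D-glucose received a further 25 mM for 24 h. The 25 mM group stayed at that level. In the 5 to 50 mM group, cells maintained at 5 mM received a further 45 mM for 24 h, and the 5 mM group stayed at 5 mM. All cells had at least 3 passages at their starting glucose, then 24 h in culture before the rise, and grew in DMEM with fetal bovine serum and antibiotics. Each group's replicate is called technical in the series' design, so the p-values below measure only the spread between these libraries. Added glucose also raises the osmolarity of the medium, and no group here is an osmotic control, so sugar and osmolarity cannot be told apart.

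SRF is a DNA-binding protein that recognises the CArG box in the promoters of actin and other contractile genes. It acts with co-activators of the myocardin family: MYOCD, which works in heart and smooth muscle, and the MRTF proteins MKL1 and MKL2, which unpolymerised actin holds in the cytoplasm. Actin filaments pulled by non-muscle myosin end at focal adhesions, the sites where zyxin, vinculin, talin and paxillin connect the filaments to integrins and the matrix. In the heart, smooth muscle alpha-actin (ACTA2) is known as a marker of vascular smooth muscle and of activated fibroblasts.

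Library totals, recovered from the values, were 21538898 to 27372851 reads, and RPKM divides a gene's reads by its length and by the library total. For a gene of 1 kb, 3 reads came to 0.11 to 0.139 RPKM, a floor for counting error only. Of 19 cardiomyocyte markers, 15 were below 1 RPKM in all 8 libraries, and MYL2 and NKX2-5 were at 0. All 13 fibroblast markers reached 1 RPKM, with VIM at 3422 to 4684 RPKM and COL1A1 at 963 to 1634 RPKM. Among 8 endothelial markers 7 stayed below 1 RPKM, and CDH5 and EMCN were at 0. Among 7 immune and epithelial markers 5 stayed below 1 RPKM, and CD68 lay between 85.1 and 251 RPKM. Of 10 smooth muscle and pericyte markers 5 were below 1 RPKM, KCNMB1 was at 0, and TAGLN lay between 519 and 1457 RPKM. Most of the listed cardiomyocyte markers were thus below 1 RPKM in cells labelled as cardiomyocytes. Those that reached 1 RPKM were NPPA (1.67 to 4.79 RPKM), ACTC1 (0.357 to 2.23 RPKM), TNNC1 (0.0955 to 1.08 RPKM) and ACTN2 (0.078 to 1.04 RPKM).

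The CArG box was searched by its exact pattern, which reads the same on both strands, in a RefSeq promoter window (GRCh38.p14) running from 250 bases before to 50 bases after the start that the table lists first for a gene. A window was at hand for 31 members, and not for ACTB, MYL9, MYH11 and MYOCD. An exact box stood in the windows of 6 of the 31 (19.4%), against 189 of 15426 genes (1.23%). For MYLK, MKL2, CALD1, LPP and FHL2 that start lies inside the gene, 263784, 76288, 68135, 877 and 16 bases from its outermost 5′ end, so the MYLK window below is not at the gene's first start. Only 1 start per gene was searched, so a window without a box says nothing about a gene's other starts. The ACTA2 window lies at that gene's outermost 5′ end and held no box, also with 1 mismatch allowed. ACTG2 and SRF held 2 or more boxes, as did 5 genes of all (0.0324%). The stretches of all 6 members with a match follow, each with the bases around its box or boxes on the gene's own strand. Capitals mark the exact boxes. The single boxes of ACTG1 and FLNA each begin 94 bases before the start, and that of FHL2 begins 101 bases before it. The MYLK box begins 94 bases before the internal start. The boxes of ACTG2 begin 110 and 73 bases before the start, and those of SRF 30 and 10 bases before it. Such a match is a description of letters and not a test of binding.
ACTG1, gamma-actin (chr17:81512859-81512918, minus strand): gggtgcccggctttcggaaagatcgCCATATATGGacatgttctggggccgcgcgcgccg
ACTG2, smooth muscle gamma-actin (chr2:73892873-73892969, plus strand): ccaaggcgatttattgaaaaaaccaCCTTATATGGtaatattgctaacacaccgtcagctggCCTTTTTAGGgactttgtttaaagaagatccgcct
MYLK, myosin light chain kinase, at an internal start (chr3:123620608-123620667, minus strand): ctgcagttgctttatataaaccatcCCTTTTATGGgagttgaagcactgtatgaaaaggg
FLNA, filamin A (chrX:154374694-154374753, minus strand): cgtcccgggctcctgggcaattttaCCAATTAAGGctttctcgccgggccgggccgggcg
FHL2, a LIM-only adaptor (chr2:105438580-105438639, minus strand): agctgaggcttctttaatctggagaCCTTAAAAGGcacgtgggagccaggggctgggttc
SRF itself (chr6:43171214-43171293, plus strand): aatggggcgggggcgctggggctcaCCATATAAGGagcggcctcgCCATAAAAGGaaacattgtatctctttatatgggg

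Levels per gene length covered a wide range. ACTB, cytoplasmic beta-actin (chr7:5527148-5530601), had the highest level of the members at 6188 to 8996 RPKM and by itself took 0.698% to 1.01% of all reads. Profilin PFN1, gamma-actin ACTG1, cofilin CFL1, the light chain MYL6 and its regulatory relatives MYL12A and MYL12B followed, and these 7 genes averaged at least 1000 RPKM over the 8 libraries. In all, 20 members averaged at least 100 RPKM, and 3 averaged under 5 RPKM. The 3 low ones were LMOD1, a leiomodin of smooth muscle (0.907 to 1.75 RPKM), MYOCD (0.533 to 2.50 RPKM) and the smooth muscle myosin heavy chain MYH11 (0.557 to 0.881 RPKM). MYH11 stayed under the filter of 1 RPKM in 2 libraries and was not tested, although 156 to 286 reads covered it in every library. It had 0.845 and 0.828 RPKM at 25 to 50 mM, 0.797 and 0.881 RPKM at 25 mM, 0.563 and 0.562 RPKM at 5 to 50 mM, and 0.661 and 0.557 RPKM at 5 mM, so all 4 libraries that started at 25 mM were above the 4 that started at 5 mM. The other 34 members were tested in each comparison. The smooth muscle light chain and filament genes MYL9 (443 to 729 RPKM) and CALD1 (185 to 285 RPKM) were abundant, so the smooth muscle genes of the set differed from each other by a wide margin in level. Together the members took 4.05% and 3.9% of reads in the 25 to 50 mM libraries, against 3.75% and 3.55% in the 25 mM libraries. They took 3.67% and 3.71% in the 5 to 50 mM libraries, against 3.29% and 3.41% in the 5 mM libraries. The share was higher in both raised libraries than in both starting ones at either starting level, and higher from 25 mM than from 5 mM. Reads of close paralogues (ACTB and ACTG1, ACTA2 and ACTG2, MYL12A and MYL12B) may have been divided between them by the authors' counting, which is not described.

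**Figure D1:**
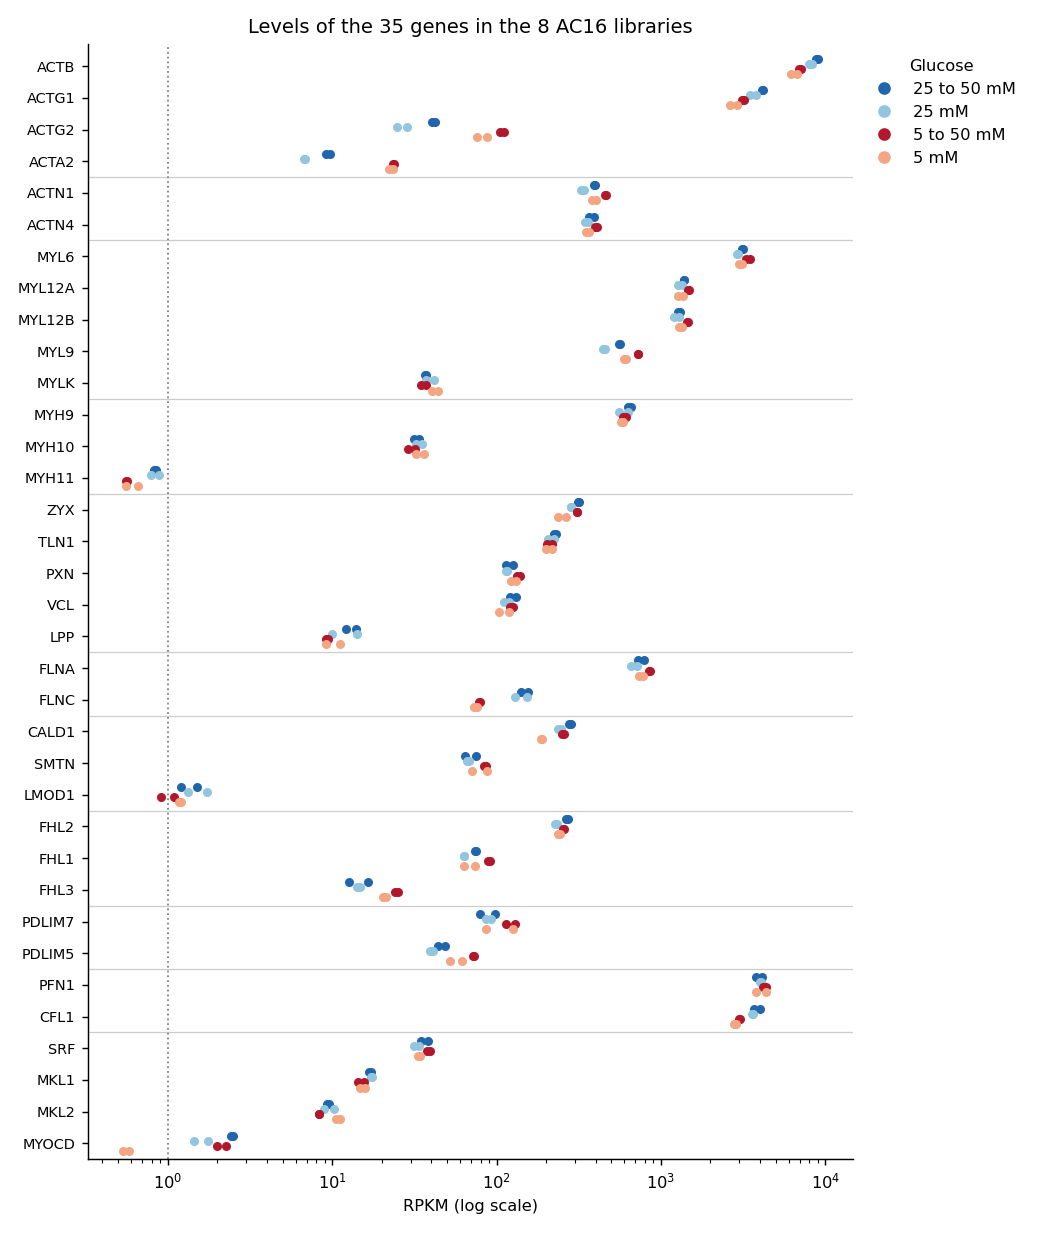
Level of each of the 35 genes (rows, grouped by role) in RPKM on a log axis, with 1 point per library, 2 libraries per glucose group and a dotted line at 1 RPKM. ACTB lies highest at 6188 to 8996 RPKM and MYH11 lies below 1 RPKM in all 8 libraries, while ACTA2, ACTG2 and FLNC separate by starting glucose.

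The rise from 5 mM was compared with limma on log2(RPKM + 1), adjusted by Benjamini-Hochberg over the 11849 genes that passed the filter. None of the 34 members tested passed an adjusted p of 0.05, a threshold that 0.329% of all genes passed, and limma's voom on recovered reads called only MYOCD. In this comparison MYOCD passed the filter on low values through the 5 to 50 mM libraries alone, so its difference there is a description. At an unadjusted p under 0.05, 16 members were higher (5.16% of all genes were) and 2 lower (5.36% of all genes). Both 5 to 50 mM libraries exceeded both 5 mM libraries for 22 members, or 64.7%, against 16.6% of all genes, and fell below both for 4 members, or 11.8%, against 26% of all genes. The median log2 change of the members tested was 0.15, against -0.03 over all genes tested. Without MYOCD, 15 of 33 members were higher at an unadjusted p under 0.05 and 21 (63.6%) did not overlap upward.

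From 25 mM the result had the same form. Again none of 34 members passed the adjusted threshold, which 0.00876% of 11422 genes passed, and voom called 0. At an unadjusted p under 0.05, 13 were higher (2.8% of all genes) and 0 lower (6.45% of all genes). Both 25 to 50 mM libraries lay above both 25 mM libraries for 21 members, or 61.8%, against 14.4% of all genes, and below them for 1 member, MYLK, or 2.94%, against 29.1% of all genes. The median log2 change was 0.11 among the members tested, against -0.03 over all genes. These rises share no library. Of the 34 members, 26 had a positive log2 change in both (76.5%), against 19.9% of the 11352 genes tested in both. The 50 mM libraries stood above their starting libraries in both rises for 18 members (52.9%), against 5.71% of all genes. Without MYOCD these counts were 25 (75.8%) and 17 (51.5%) of 33. The members were chosen with earlier results of these data known, so their shares in both rises are descriptions. All genes are also not matched to them in level. Of 35 members, 20 averaged at least 100 RPKM, while the libraries' upper quartiles over genes above 0 were 35.1 to 37.4 RPKM.

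Those 18 members were ACTB, ACTG1 and ACTG2 among the actins, both alpha-actinins, the light chains MYL6, MYL9 and MYL12A, VCL and ZYX of the focal adhesion, FLNA, CALD1, FHL1, FHL2, PDLIM5, CFL1, SRF and MYOCD. Every role group but the myosin heavy chains had a member among them. FHL2 averaged 1.06 times its starting mean from 5 mM and 1.17 times from 25 mM. The differences were small: apart from MYOCD, no member's mean in either rise exceeded 1.55 times its starting mean.

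Among the actins, ACTG2 showed the largest rise-related difference. ACTG2, the gamma-actin of enteric smooth muscle (chr2:73893008-73919865), whose promoter held a pair of CArG boxes, had 40.6 and 42.5 RPKM in the 25 to 50 mM libraries, against 25.0 and 28.7 RPKM in the 25 mM libraries. It had 111 and 105 RPKM in the 5 to 50 mM libraries, against 87.1 and 76.3 RPKM in the 5 mM libraries. Raised and starting libraries did not overlap at either level. The log2 change was 0.40 from 5 mM (SE 0.08, limma adjusted p = 0.209) and 0.61 from 25 mM (SE 0.08, limma adjusted p = 0.214), so neither passed.

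ACTA2 (chr10:88935074-88991337) had 9.69 and 9.14 RPKM in the 25 to 50 mM libraries, against 6.71 and 6.85 RPKM in the 25 mM libraries. Its levels were 23.4 and 23.7 RPKM in the 5 to 50 mM libraries, against 23.6 and 22.3 RPKM in the 5 mM libraries. The groups were apart from 25 mM and overlapped from 5 mM. The cytoplasmic actins moved little: ACTG1 averaged 1.15 times its starting mean from 5 mM and 1.14 times from 25 mM, and ACTB 1.09 times in each, with adjusted p between 0.396 and 0.585 in limma.

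**Figure D2:**
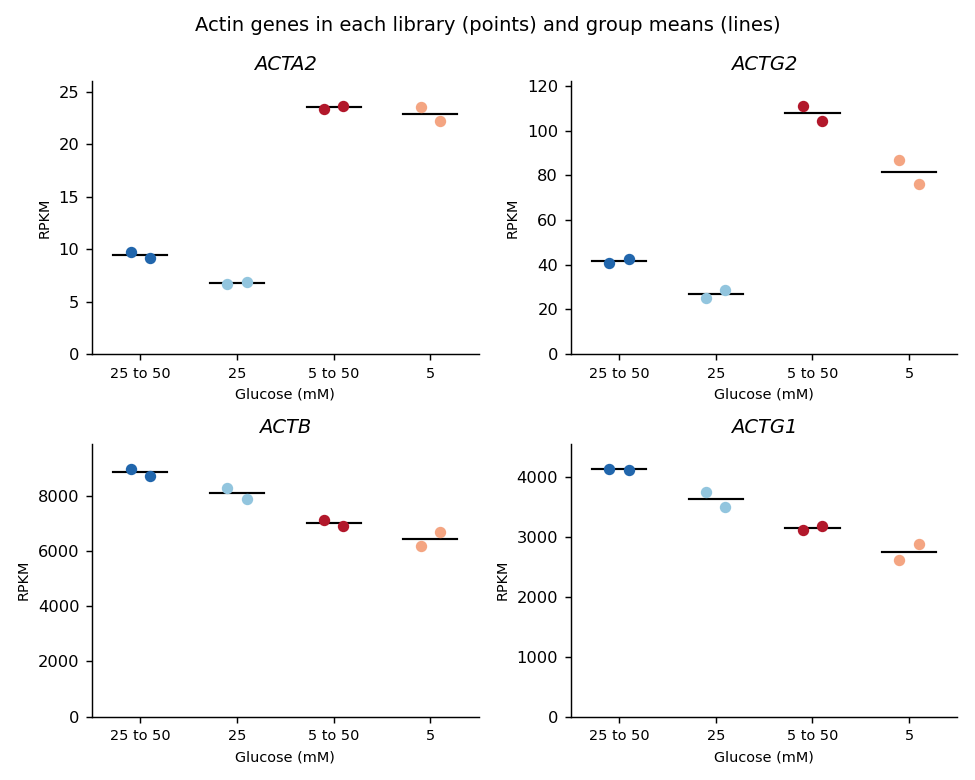
RPKM of the 4 actin genes in each library (points, 2 per glucose group) with the group mean as a line, each axis starting at 0. ACTA2 and ACTG2 are lower in the groups that started at 25 mM and ACTB and ACTG1 are higher there, while ACTG2 is higher in each 50 mM group than in its starting group.

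Of the crosslinkers and motors, alpha-actinin ACTN1, which bundles actin filaments, averaged 393 ± 4.44 RPKM at 25 to 50 mM and 332 ± 9.77 RPKM at 25 mM, and 461 ± 6.46 RPKM at 5 to 50 mM and 391 ± 15.7 RPKM at 5 mM (SD, n = 2 libraries each). Its ratio of means was 1.18 in both rises. MYL9, the regulatory light chain of smooth muscle and non-muscle myosin (chr20:36541519-36551447), had 560 and 556 RPKM in the 25 to 50 mM libraries, against 443 and 455 RPKM in the 25 mM libraries. It had 721 and 729 RPKM in the 5 to 50 mM libraries, against 592 and 610 RPKM in the 5 mM libraries. These groups were well apart, with log2 changes of 0.27 from 5 mM (limma adjusted p = 0.162) and 0.31 from 25 mM (limma adjusted p = 0.214). MYL6, MYL12A and MYL12B differed by 1.04 to 1.12 times. MYLK, the kinase that phosphorylates these light chains, went the other way, with 34.6 and 37.3 RPKM in the 5 to 50 mM libraries, against 43.8 and 40.7 RPKM in the 5 mM libraries. The non-muscle heavy chains MYH9 and MYH10 had log2 changes between -0.15 and 0.12.

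Focal adhesion members differed among themselves. ZYX, zyxin, an SRF-responsive LIM protein of adhesions and stress fibres, had a log2 change of 0.31 from 5 mM and 0.15 from 25 mM. Vinculin VCL had log2 changes of 0.16 from 5 mM and 0.13 from 25 mM, while talin TLN1 (0.02 and 0.08) and paxillin PXN (0.11 and 0.05) were closer to 0. LPP, a zyxin relative, had -0.11 from 5 mM and 0.11 from 25 mM. None of these 5 passed the limma threshold. Filamin A was 1.12 times its 5 mM mean after the rise from 5 mM and 1.11 times its 25 mM mean after the rise from 25 mM, and its muscle relative FLNC 1.07 and 1.05 times.

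CALD1 came closest to the threshold among the abundant members. It encodes caldesmon, an actin-binding inhibitor of myosin's ATPase activity (chr7:134711499-134970729). CALD1 had 256 and 249 RPKM in the 5 to 50 mM libraries, against 189 and 185 RPKM in the 5 mM libraries, and 285 and 275 RPKM in the 25 to 50 mM libraries, against 246 and 235 RPKM in the 25 mM libraries. Neither pair of groups overlapped. The log2 change from 5 mM was 0.43 (SE 0.05, limma adjusted p = 0.0572), and 5 of 14 alternatives called it, with adjusted p from 0.007 to 0.605. Voom was among those that did not call it, as was leaving out either 5 to 50 mM library (0.605 without replicate 1 and 0.511 without replicate 2). From 25 mM the log2 change was 0.22 (SE 0.05, limma adjusted p = 0.453). Smoothelin SMTN and LMOD1, the other thin filament genes, had log2 changes between -0.13 and 0.11.

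In the LIM domain adaptors the pattern varied by gene. FHL1, a LIM-only adaptor of muscle, had 88.9 and 91.5 RPKM in the 5 to 50 mM libraries, against 74.2 and 63.5 RPKM in the 5 mM libraries. PDLIM5, a PDZ-LIM protein that ties kinases to alpha-actinin, had 72.5 and 72.9 RPKM in the 5 to 50 mM libraries, against 61.4 and 51.8 RPKM in the 5 mM libraries. Neither gene's groups overlapped, and the 5 mM libraries differed from each other more than the 5 to 50 mM ones did. FHL3, PDLIM7, CFL1 and PFN1 had log2 changes from -0.03 to 0.23 over both rises. PDLIM7 had 86.9 and 126 RPKM in the 5 mM libraries alone, the widest gap, as a ratio, between libraries of a group among the 20 members that averaged at least 100 RPKM.

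MYOCD had the largest log2 difference of the members tested in the rise from 5 mM. Myocardin is the SRF co-activator of heart and smooth muscle (chr17:12665890-12768949). It had 2.01 and 2.28 RPKM in the 5 to 50 mM libraries, against 0.533 and 0.580 RPKM in the 5 mM libraries, which rest on 139 and 157 reads, against 34 and 47 reads. From 25 mM it had 2.43 and 2.50 RPKM at 25 to 50 mM (177 and 185 reads), against 1.76 and 1.45 RPKM at 25 mM (139 and 117 reads). Every 50 mM library was above every starting library. Its mean was 3.86 times the 5 mM mean and 1.53 times the 25 mM mean. On the log2(RPKM + 1) scale, which understates changes of low genes, the difference from 5 mM was 1.01 (SE 0.12), given without its p because of how MYOCD passed the filter there.

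SRF differed far less. It had 38.1 and 34.9 RPKM in the 25 to 50 mM libraries, against 33.8 and 31.6 RPKM in the 25 mM libraries, and 37.6 and 39.4 RPKM in the 5 to 50 mM libraries, against 33.2 and 34.4 RPKM in the 5 mM libraries. The groups were apart in both, with log2 changes of 0.18 from 5 mM (limma adjusted p = 0.432) and 0.16 from 25 mM (limma adjusted p = 0.543). MKL1 stayed between 14.4 and 17.5 RPKM in all 8 libraries. MKL2 had 8.35 and 8.30 RPKM in the 5 to 50 mM libraries, against 11.2 and 10.6 RPKM in the 5 mM libraries, a log2 change of -0.35 (SE 0.09, limma adjusted p = 0.273), opposite in sign to that of MYOCD. From 25 mM the MKL2 groups overlapped.

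**Figure D3:**
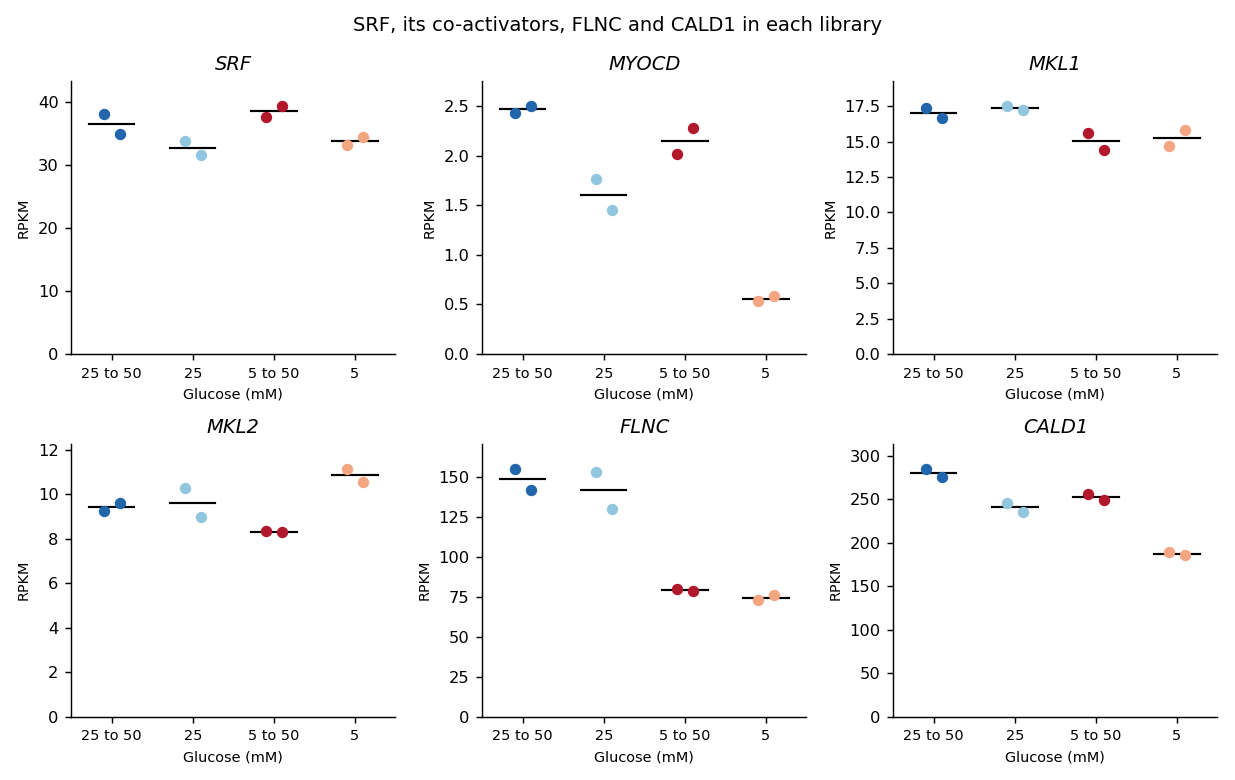
RPKM of SRF, its co-activators MYOCD, MKL1 and MKL2, and of FLNC and CALD1 in each library (points, 2 per glucose group) with the group mean as a line, each axis starting at 0. MYOCD is lowest at 5 mM (0.533 and 0.580 RPKM), FLNC separates by starting glucose, and CALD1 is lowest at 5 mM.

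The rise from 5 mM was also tested against the rise from 25 mM in a fit of all 8 libraries. None of the 34 members passed, with 0.0251% of all 11941 genes doing so, and voom called 0. At an unadjusted p under 0.05, 2 members had a larger change from 5 mM (3.74% of all genes) and 2 a smaller one (2.29% of all genes). For MYOCD the difference of log2 changes was 0.60 (95% interval 0.27 to 0.94, limma adjusted p = 0.460). MYOCD reached 1 RPKM in every library of this fit but those at 5 mM, where it rested on 34 and 47 reads. CALD1 followed with 0.21 (0.06 to 0.36, limma adjusted p = 0.603). ACTA2 had -0.38 (-0.61 to -0.16, limma adjusted p = 0.509) and MKL2 -0.32 (-0.60 to -0.05, limma adjusted p = 0.772). For ACTN1 the difference was 0.00 with an interval of -0.15 to 0.15, and for SRF it was 0.03 with an interval of -0.19 to 0.24. The median over the members was 0.02, against 0.01 over all genes.

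**Figure D4:**
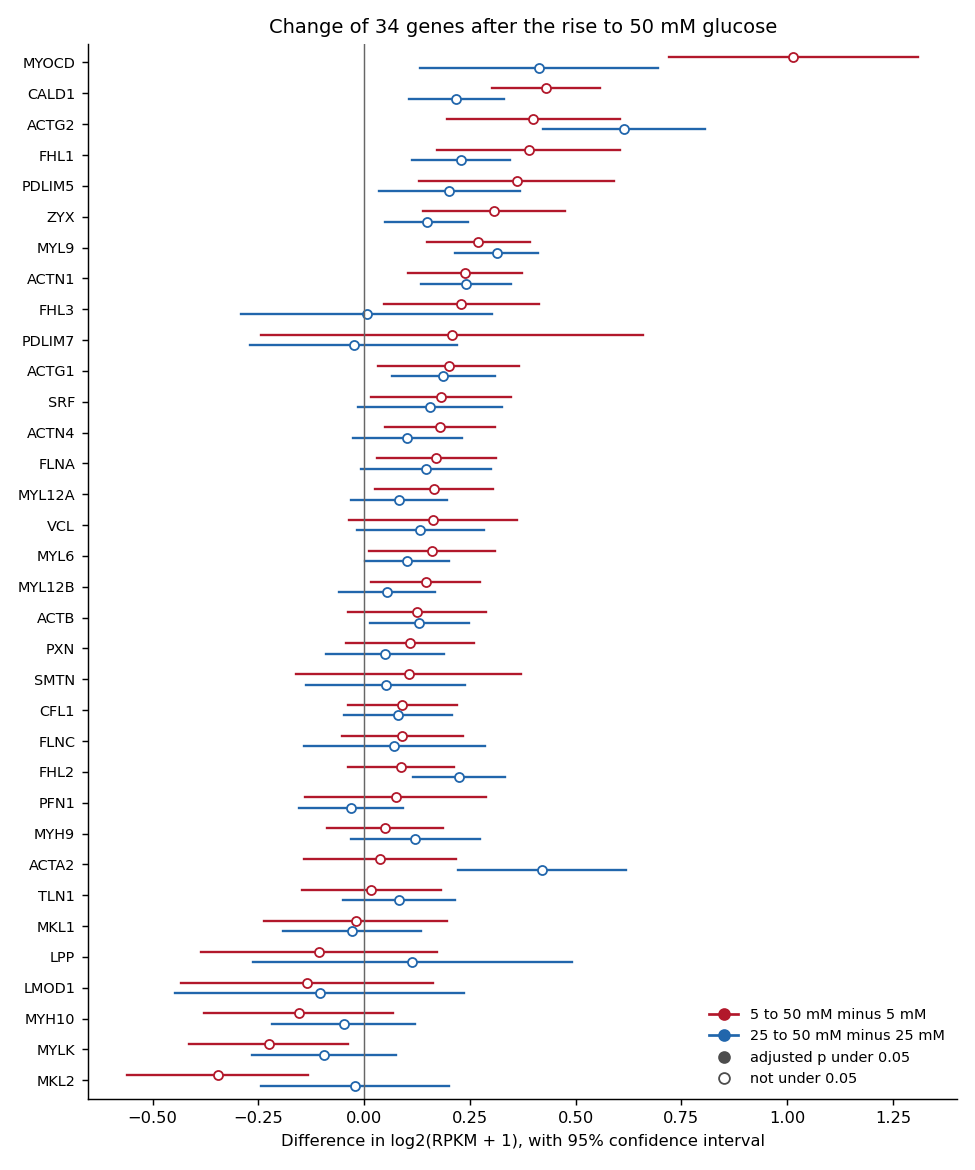
Difference in log2(RPKM + 1) after the rise from 5 mM (red) and from 25 mM (blue) for the 34 genes tested, with 95% confidence intervals from limma; open points did not pass an adjusted p of 0.05, which no member did. Most genes lie right of 0 in both, MYOCD is farthest at 1.01 from 5 mM, and MKL2 lies at -0.35 from 5 mM.

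Between the starting glucose levels, members differed in opposite directions: the smooth muscle actins were lower at 25 mM than at 5 mM, while the cytoplasmic actins, FLNC and MYOCD were higher. The comparison of 25 mM with 5 mM cells sets libraries of separate deposited tables beside each other, so glucose history, table and any other difference between these cultures cannot be told apart. Of 34 members, 13 passed the adjusted threshold in limma (38.2%), close to the 39.1% of all 11941 genes. At 25 mM 7 were higher (17% of all genes were called higher) and 6 lower (22.1% of all genes). Groups did not overlap for 9 members that were higher (26.5%, against 32.4% of all genes) and 12 that were lower (35.3%, the same share as of all genes). At 50 mM, 14 of 34 members passed between the 25 to 50 mM and the 5 to 50 mM cells (41.2%, against 41.4% of all genes), 5 higher (18.1% of all genes) and 9 lower (23.3% of all genes). With median centring this split was 7 higher and 6 lower. Both 25 to 50 mM libraries lay above both 5 to 50 mM libraries for 14 members (41.2%, against 34.8% of all genes) and below them for 16 (47.1%, against 39.9%). These counts are near those of all genes, so it is the individual members that are described.

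Smooth muscle and cytoplasmic actins went opposite ways. ACTA2 fell to 6.71 and 6.85 RPKM in the 25 mM libraries, against 23.6 and 22.3 RPKM in the 5 mM libraries, a log2 change of -1.62 (SE 0.07, limma adjusted p = 4.07e-06). In a bulk sample, fewer cells that make such an RNA and less of it per cell cannot be told apart. ACTG2 fell to 25.0 and 28.7 RPKM in the 25 mM libraries, against 87.1 and 76.3 RPKM in the 5 mM libraries, a log2 change of -1.57 (SE 0.09). At 50 mM both stayed lower in cells that started at 25 mM, by log2 changes of -1.24 for ACTA2 and -1.36 for ACTG2. ACTB rose to 8300 and 7904 RPKM in the 25 mM libraries, against 6188 and 6712 RPKM in the 5 mM libraries, a log2 change of 0.33 (SE 0.06, limma adjusted p = 0.00277). ACTG1 had 3760 and 3501 RPKM in the 25 mM libraries, against 2613 and 2885 RPKM in the 5 mM libraries, a log2 change of 0.40 (SE 0.06, limma adjusted p = 0.0015). The cytoplasmic actins were higher by 0.33 and 0.39 at 50 mM too. There ACTB lost its call under quantile normalization, where its log2 difference was 0.00. That method gives genes of equal rank the same value in every library. A very abundant gene that keeps its rank therefore shows no difference, so this alternative cannot test the level of ACTB. As a share of the RPKM of the 4 actins, the smooth muscle ones made up 0.381% and 0.4% in the 25 to 50 mM libraries and 0.262% and 0.31% in the 25 mM libraries, against 1.3% and 1.25% in the 5 to 50 mM libraries and 1.24% and 1.02% in the 5 mM libraries.

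FLNC, the muscle filamin that crosslinks actin at Z-discs and adhesions (chr7:128830406-128859272), had the largest increase on the log2(RPKM + 1) scale. It had 153 and 130 RPKM in the 25 mM libraries, against 72.8 and 75.9 RPKM in the 5 mM libraries, and 155 and 142 RPKM in the 25 to 50 mM libraries, against 79.7 and 78.6 RPKM in the 5 to 50 mM libraries. No library from 25 mM overlapped one from 5 mM. The log2 changes were 0.91 (SE 0.08, limma adjusted p = 0.00013) and 0.90 (SE 0.08, limma adjusted p = 0.000133). Filamin A did not pass in either comparison, with log2 values of -0.15 and -0.17.

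MYOCD also rose at 25 mM, with 1.76 and 1.45 RPKM, against 0.533 and 0.580 RPKM in the 5 mM libraries, a log2 change of 0.74 (SE 0.10, limma adjusted p = 0.00101). So MYOCD was higher where ACTA2 and ACTG2 were lower. MYOCD reached 1 RPKM in every library of this fit but those at 5 mM, where it rested on 34 and 47 reads. At 50 mM its libraries still did not overlap, but the log2 difference was 0.14 with an interval of -0.10 to 0.38 (limma adjusted p = 0.306). SRF had log2 values of -0.05 and -0.07, MKL1 0.18 and 0.17, and MKL2 -0.16 and 0.16, at 25 mM and at 50 mM in that order, none of which passed.

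Several linker and light chain genes fell with the smooth muscle actins. PDLIM5 had 41.1 and 39.5 RPKM in the 25 mM libraries, against 61.4 and 51.8 RPKM in the 5 mM libraries (log2 -0.48, limma adjusted p = 0.00382), and was lower by 0.63 on the log2 scale at 50 mM. FHL3, a LIM-only protein of skeletal muscle, had 14.7 and 14.2 RPKM in the 25 mM libraries, against 20.5 and 21.3 RPKM in the 5 mM libraries (log2 -0.50, limma adjusted p = 0.00911). Its call was lost without 25 mM replicate 3 (adjusted p = 0.0582), and at 50 mM its log2 change was -0.73 (limma adjusted p = 0.00157). The 25 mM libraries of both genes lay below the 5 mM ones. MYL9 fell by 0.42 on the log2 scale at 25 mM and by 0.38 at 50 mM, and ACTN1 by 0.23 in each, the last call being lost at 50 mM under a replicate block (adjusted p = 0.0532).

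CFL1, cofilin, which severs actin filaments, had 3602 and 3649 RPKM in the 25 mM libraries, against 2847 and 2788 RPKM in the 5 mM libraries (log2 0.36, limma adjusted p = 0.000985), and rose by a log2 of 0.35 at 50 mM. Profilin, which feeds actin monomers to growing filaments, did not pass, with 4019 and 4042 RPKM at 25 mM, against 3757 and 4376 RPKM at 5 mM. CALD1 rose at 25 mM (log2 0.36, limma adjusted p = 0.000613) and at 50 mM (0.15, limma adjusted p = 0.0307), where 6 alternatives, among them leaving out any 1 of the 4 libraries at 50 mM, ended its call. ZYX rose at 25 mM (log2 0.19, limma adjusted p = 0.0281), a call that 7 alternatives ended, and had a log2 value of 0.03 at 50 mM that did not pass. At 50 mM FHL1 (-0.27), PXN (-0.18) and MYL12B (-0.17) were lower, each losing its call in several alternatives, without either 5 to 50 mM library among them. MYL12A, which lies 5895 bases from MYL12B on chromosome 18 and is closely alike in sequence, had a log2 value of -0.09 there and did not pass. The heavy chains MYH9 and MYH10, vinculin and talin passed in neither comparison, with log2 values from -0.01 to 0.10.

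**Figure D5:**
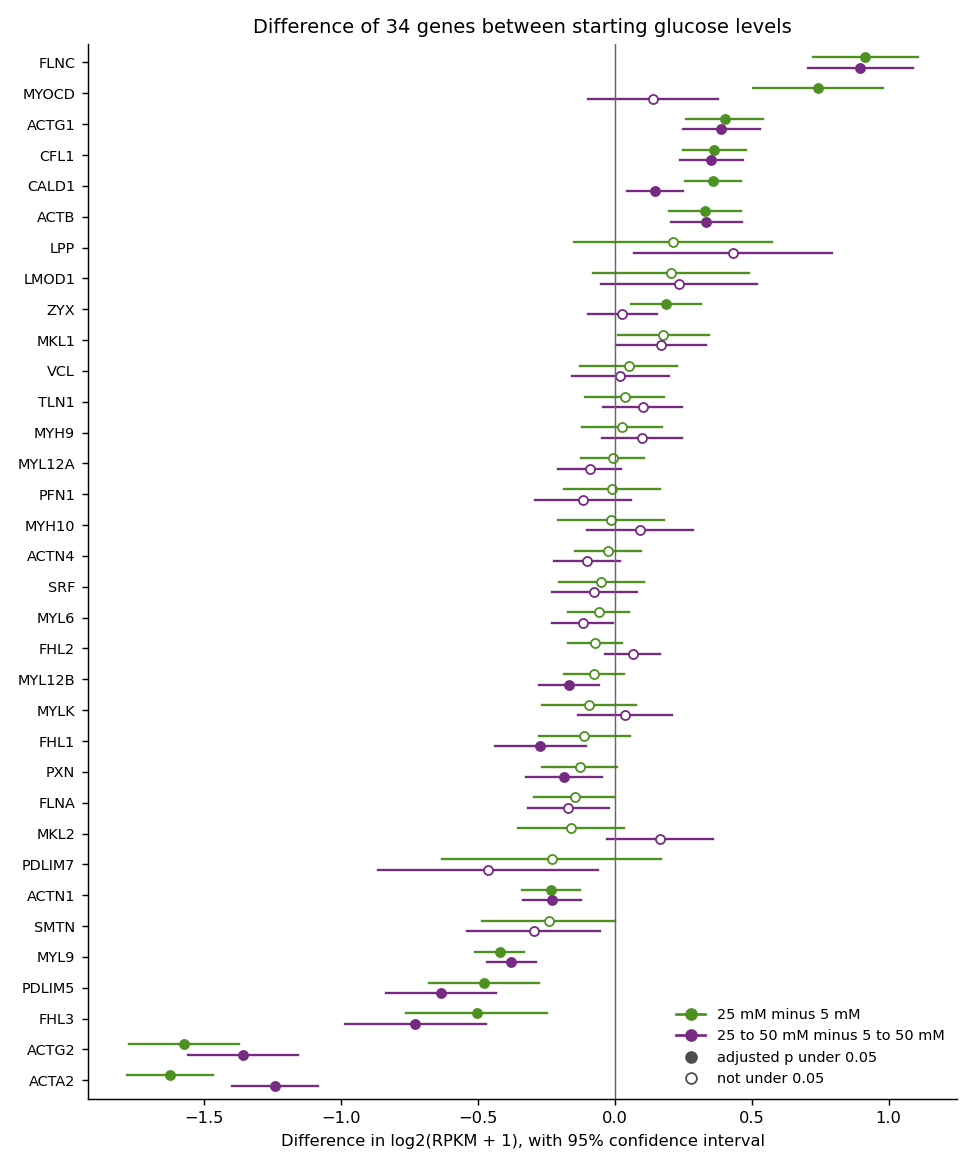
Difference in log2(RPKM + 1) of 25 mM minus 5 mM (green) and of 25 to 50 mM minus 5 to 50 mM (purple) for the 34 genes tested, with 95% confidence intervals from limma; filled points passed an adjusted p of 0.05. ACTA2 and ACTG2 lie between -1.62 and -1.24, FLNC at 0.91 and 0.90, and MYOCD is filled at 25 against 5 mM only.

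Gene lists related to the members, chosen with earlier results of these data known, were counted in the same fits. From 5 mM, 0.329% of all genes passed the adjusted threshold in either direction, and from 25 mM 0.00876% did. Of 15 other SRF and MRTF targets, 4 rose from 5 mM and none fell, with a median log2 change of 0.24. They were CTGF, a matricellular protein (292 ± 13.7 RPKM at 5 to 50 mM and 138 ± 5.19 RPKM at 5 mM), tropomyosin TPM1 (654 ± 8.93 and 390 ± 0.63 RPKM), transgelin TAGLN (1420 ± 51.8 and 993 ± 29.7 RPKM) and CYR61 (1113 ± 11.5 and 795 ± 3.38 RPKM), in the same order of groups (SD, n = 2). The limma adjusted p of these 4 lay between 0.0269 and 0.0479. No gene of all passed from 5 mM without the filter, without the trend or with a replicate block, so these calls depend on the fit. From 25 mM, 1 of the 15 rose, TAGLN, with 869 ± 9.80 RPKM at 25 to 50 mM and 530 ± 14.7 RPKM at 25 mM (log2 0.71, limma adjusted p = 0.022). No gene passed in either rise among 10 ternary complex factors and immediate early targets (median log2 -0.08 from 5 mM and -0.07 from 25 mM), 23 other focal adhesion genes (0.08 and 0.01) or 25 actin nucleation, capping and turnover genes (0.01 and -0.01). Across these 3 lists the medians lay nearer to the -0.03 of all genes than the members' own 0.15 and 0.11 did. The other focal adhesion genes still shared part of the members' pattern from 5 mM. Of 22 tested, 8 were higher at an unadjusted p under 0.05 (5.16% of all genes) and 0 lower (5.36%). Groups did not overlap upward for 10 (16.6% of all genes) and downward for 3 (26%). From 25 mM, 1 of 21 was higher at that p and 1 lower.

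Between 25 mM and 5 mM each of these lists held calls in both directions, where 17% of all genes were called higher and 22.1% lower. The lists were counted and not tested against that background. Of the 15 SRF and MRTF targets 5 were higher and 5 lower at 25 mM. CNN1, a calponin of smooth muscle, rose by a log2 of 1.13 and MICAL2, an actin-oxidising enzyme, by 0.53, while TAGLN fell by 0.91 and FBLIM1, a filamin-binding adaptor, by 0.78. Among the ternary complex factors and immediate early targets 1 was higher, EGR1 (0.43), and 3 were lower, EGR2 (-0.98), FOS (-0.65) and ELK3 (-0.29). EGR2 averaged 0.143 RPKM at 25 mM and 1.25 RPKM at 5 mM. It passed the filter through the libraries that started at 5 mM alone, so its difference is a description. The other focal adhesion genes had 9 higher, FERMT2 (0.57) and SRC (0.52) among them, and 7 lower, with TNS1 at -1.12. TNS1 averaged 0.765 RPKM at 25 mM and 2.81 RPKM at 5 mM. Its difference is a description too, since only libraries that started at 5 mM took it past the filter. In the actin turnover list 4 were higher, with PFN2 at 0.67 and RDX at 0.55, and 8 lower, with the actin-sequestering TMSB4X at -0.64 and ARPC1B at -0.63.

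Quality and cell type lists were counted in the comparison of 25 mM with 5 mM in the same way. Replication-dependent histones summed to 69.0 to 69.2 RPKM at 25 to 50 mM and 51.8 to 56.4 RPKM at 25 mM, against 455 to 468 RPKM at 5 to 50 mM and 301 to 370 RPKM at 5 mM, and 8 of the 9 tested were lower at 25 mM than at 5 mM. Of 18 ribosomal protein genes 7 were higher there (17% of all genes were) and 1 lower (22.1% of all genes). Both 25 mM libraries lay above both 5 mM libraries for 15 of the 18, against 32.4% of all genes. At 50 mM, 14 were higher in cells that started at 25 mM (18.1% of all genes) and 1 lower (23.3%). The 13 fibroblast markers had 5 higher and 5 lower, and their summed level overlapped, at 6527 to 6885 RPKM at 25 mM, against 6553 to 7199 RPKM at 5 mM. The smooth muscle and pericyte markers summed to 614 to 641 RPKM at 25 mM, against 1056 to 1088 RPKM at 5 mM, with 2 higher, CNN1 and PDGFRB, and 2 lower, TAGLN and RGS5, among 5 tested. Most of that sum was TAGLN, which averaged 530 RPKM at 25 mM and 993 RPKM at 5 mM, so the sum describes this gene more than the list. Of the immune and epithelial markers CD68 alone was lower, by a log2 of -1.42, of the cardiomyocyte markers TNNC1 was higher and NPPA lower, and the 1 endothelial marker tested did not pass. TNNC1 averaged 1.07 RPKM at 25 mM and 0.236 RPKM at 5 mM. It passed the filter through the 25 mM libraries alone, so its difference is a description. The part of these lists in the members' differences was not tested. In the rises TAGLN alone passed among all these marker, histone and ribosomal lists. Histones had median log2 changes of 0.385 from 5 mM and 0.324 from 25 mM, above the members' 0.15 and 0.11. Groups did not overlap upward for 6 of 9 and 6 of 8 (16.6% and 14.4% of all genes), and downward for 1 and 0. In each rise 5 of 13 fibroblast markers were higher at an unadjusted p under 0.05 (5.16% and 2.8% of all genes) and 0 lower. Medians of the ribosomal protein genes were -0.05 and 0.02. An upward shift was thus not particular to the members.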

How the data were processed

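Total RNA of AC16 cells was extracted with TRIzol and made into Illumina libraries, per the labels' protocols. The authors deposited RPKM values in 2 tables, 1 for each starting glucose. Per the submitters' processing notes, reads were aligned with STAR to hg38; the counting tool, strand setting and gene lengths are not given in the sources used here. Whole reads, library totals and gene lengths were recovered from the RPKM values (100% of genes above 0 gave whole reads within 0.01), and 1 length per gene fitted all 8 libraries, so both tables used the same lengths. Upper quartiles of RPKM differed between libraries by at most 1.065 times. Libraries of a group differed by more than counting error, with chi-square per degree of freedom from 2.6 (5 to 50 mM) to 16.55 (5 mM).

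Genes reaching 1 RPKM in 2 or more of the fitted libraries were tested on log2(RPKM + 1) with limma 3.58.1 in R 4.3.3 (moderated, mean-variance trend, two-sided, Benjamini-Hochberg over all genes tested, threshold 0.05). Each rise was fitted on its own 4 libraries (2 residual degrees of freedom) and the other comparisons on all 8 (4 residual degrees of freedom). Unadjusted counts and non-overlap are descriptions. Intervals are limma's at 95%. All members are named, and of each list up to 4 called genes with the largest change, printed in part; 1 list is not reported here. Members and lists were chosen with earlier results of these data known. The fits were tested on simulated data. Gene positions come from RefSeq (GRCh38.p14), as does the first promoter window listed per gene. Promoters were to be shown for called members with a match, and the other 4 with a match were added. Alternatives were pseudocounts of 0.1 and 0.5, no filter, a stricter filter (mean of 5 RPKM or more), centring on medians, quantile normalization, no trend, voom, a joint fit, a replicate block and leaving out each library.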

Additional observations from a re-analysis of the deposited data

How the results depend on the processing

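The rises were the least settled results. From 5 mM the members called were 0 in the fit reported, 2 with median centring and 2 with quantile normalization (CALD1 and MYOCD in each), 1 with voom (MYOCD) and 3 with a joint fit of 8 libraries (MYL9, CALD1 and MYOCD). Leaving out 1 library gave 0 to 13: 11 without 5 mM replicate 1, 13 without 5 mM replicate 3 and 0 without either 5 to 50 mM library. Without MYOCD, which passed the filter through the 5 to 50 mM libraries alone, a choice made after seeing the data, these counts were 1, 1, 0, 2, 10 and 12. From 25 mM leaving out 1 library gave 0 to 5, the 5 without 25 to 50 mM replicate 2 (ACTG2, MYL9, ACTN1, FHL2 and PDLIM5), and every other alternative gave 0. A lone library left in a group is assumed to vary like the others. The cause of these shifts was not tested. The difference of the rises called 0 members under every alternative run.

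Between 25 mM and 5 mM the alternatives called 11 to 17 members, and 11 of the 13 calls held in each alternative that tested them. Between 25 to 50 mM and 5 to 50 mM they called 10 to 20, and 8 of the 14 calls held (ACTA2, ACTG1, ACTG2, CFL1, FHL3, FLNC, MYL9 and PDLIM5). PFN1 reversed at 25 against 5 mM under quantile normalization, with a log2 of 0.27 (limma adjusted p = 0.0224) in place of -0.01; the cause was not tested. Allowing 1 mismatch in the CArG box raised the members with a match to 13 of 31 (41.9%), against 16.9% of all genes.

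Replicate numbers do not state a pairing, and the groups of a rise share only 1 number. A replicate block over all 8 libraries called 0 members in both rises and in their difference, 12 at 25 against 5 mM and 10 at 25 to 50 against 5 to 50 mM, and no gene of all in the rises. Depth was low for MYOCD at 5 mM, with 34 and 47 reads.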
